A study of Mus musculus with 12 samples.

Results

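Oxidative phosphorylation subunits are described here as measured by RNA sequencing in sorted mouse bone marrow cells. The members were taken by name: they are the nuclear-coded genes whose symbol begins Ndufa, Ndufb, Ndufc, Ndufs or Ndufv, Uqcr, Cox4 to Cox8, Atp5 or Sdha to Sdhd. The rule found 83 of the 24421 gene symbols of the count table, and no expression value entered it. Of the 83, 36 belong by name to complex I, 4 to complex II, 8 to complex III, 18 to complex IV and 17 to the ATP synthase. The name is not always the place of work: Ndufa4 is now known as a component of complex IV, Cox7a2l as a factor that joins complexes III and IV, Atp5sl as an assembly factor of complex I, and Atp5s as a coupling factor beside the ATP synthase. They are kept under the complex their symbol names. The mitochondrially coded subunits were not analysed here.

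The cells were GFP-positive LSK cells, that is bone marrow cells without lineage markers that carry Kit and Sca-1 and include the blood stem cells. They were sorted from secondary recipient mice that had received donor blood stem and progenitor cells. All 12 libraries therefore share transplantation, a GFP label and the same sort, and there were 3 libraries in each of 4 groups. The wildtype group is titled Empty; miR146aKO (Mir-146 KO/Empty) lacks the microRNA miR-146a; Runx1mut carries the frameshift mutant Runx1S291fsX300; and miR146aKO_Runx1mut, called the double genotype below, carries both changes. The titles do not define Empty or the way in which mutant Runx1 entered the cells. The age, sex and pooling of the animals and the number of donors were not stated in the labels. The comparison asks how loss of miR-146a and mutation of Runx1, alone and together, leave the transcripts of the respiratory chain.

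The respiratory chain sits in the inner mitochondrial membrane. Complex I takes electrons from NADH and complex II from succinate. Complex III passes them on to cytochrome c and complex IV to oxygen, and the proton gradient built on the way drives the ATP synthase. Blood stem cells are known for a quiet, largely glycolytic state in which the chain is held at low activity, and activation or differentiation is known to raise its use. miR-146a is a brake on innate immune signalling, and Runx1 is a transcription factor of blood formation.

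Promoter letters are shown first because the subunit genes lie scattered over the genome and are known to share binding sites of nuclear respiratory factor 1 (NRF1), of ETS factors such as GABPA, and of YY1. RefSeq promoters (GRCm38.p6, 250 bases before to 50 after the transcription start) were found for 69 members, which gave 75 promoters. The first 3 sequences belong to members whose counts the results below turn on, Cox6a1 is the most abundant complex IV member per length, and Atp5j shares its start region with Gabpa, the gene for one of these factors, which lies on the other strand. Capitals mark the letters of the NRF1, GABPA, YY1 and RUNX motifs on either strand. The windows are chr10:128083057-128083356 (plus strand) for Atp5b, chr9:50603800-50604099 (minus) for Sdhd, chr7:97399753-97400052 (plus) for Ndufc2, chr5:115348909-115349208 (minus) for Cox6a1 and chr16:84834927-84835226 (minus) for the second of the Atp5j promoters.
Atp5b: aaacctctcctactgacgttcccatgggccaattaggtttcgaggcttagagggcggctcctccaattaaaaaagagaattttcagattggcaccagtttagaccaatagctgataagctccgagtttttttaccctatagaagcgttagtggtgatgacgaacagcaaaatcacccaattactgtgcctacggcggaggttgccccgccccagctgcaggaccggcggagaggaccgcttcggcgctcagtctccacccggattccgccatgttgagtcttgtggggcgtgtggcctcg
Sdhd: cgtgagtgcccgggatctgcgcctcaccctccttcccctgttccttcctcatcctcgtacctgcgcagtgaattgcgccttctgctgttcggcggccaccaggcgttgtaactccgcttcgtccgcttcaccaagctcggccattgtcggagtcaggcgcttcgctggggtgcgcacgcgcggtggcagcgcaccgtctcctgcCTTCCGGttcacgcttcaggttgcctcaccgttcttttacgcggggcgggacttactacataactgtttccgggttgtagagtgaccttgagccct
Ndufc2: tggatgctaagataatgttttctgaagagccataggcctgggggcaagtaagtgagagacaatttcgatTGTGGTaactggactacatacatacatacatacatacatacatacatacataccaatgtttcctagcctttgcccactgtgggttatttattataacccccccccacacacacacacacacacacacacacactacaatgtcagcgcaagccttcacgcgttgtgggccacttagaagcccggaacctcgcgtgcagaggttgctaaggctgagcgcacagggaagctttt
Cox6a1: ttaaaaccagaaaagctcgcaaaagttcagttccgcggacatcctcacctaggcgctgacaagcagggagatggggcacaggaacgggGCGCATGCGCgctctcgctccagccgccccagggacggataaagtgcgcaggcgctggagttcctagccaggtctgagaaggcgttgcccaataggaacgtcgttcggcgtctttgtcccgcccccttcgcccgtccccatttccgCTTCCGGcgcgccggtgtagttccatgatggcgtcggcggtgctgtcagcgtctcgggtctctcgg
Atp5j: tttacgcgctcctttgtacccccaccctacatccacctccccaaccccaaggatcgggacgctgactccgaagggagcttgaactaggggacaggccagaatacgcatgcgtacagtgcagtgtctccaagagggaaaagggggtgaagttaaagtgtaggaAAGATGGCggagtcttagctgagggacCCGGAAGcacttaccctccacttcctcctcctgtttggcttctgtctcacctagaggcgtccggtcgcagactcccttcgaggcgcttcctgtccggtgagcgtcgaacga

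The Cox6a1 window holds an NRF1 palindrome and a GABPA motif, the Atp5j window a YY1 motif followed by a GABPA motif, and the Sdhd window a GABPA motif. In the Ndufc2 window the only capital run is a RUNX motif, and the Atp5b window holds none of the 4. Over all members, GCATGCGC (NRF1) was in 13.3% of the 75 promoters, against 2.71% of all 32851 RefSeq promoters of the same length. CCGGAAG (GABPA) was in 21.3% against 8.86%, and AAGATGGC (YY1) in 16% against 2.75%. The GC box GGGCGG was in 38.7% against 35.7%, CCAAT in 42.7% against 37.4% and TATAAA in 10.7% against 13.6%. The RUNX motif TGTGGT, the core bound by Runx1 and its relatives, was in 9.33% of member promoters and in 16.8% of all. Both strands were searched, a promoter was counted once however many matches it held, and none of these motifs lies inside another, although neighbouring copies can overlap as in Cox6a1. The median GC content was 57.3% for the member promoters and 52.7% for all, and a match of letters is a description rather than a bound site.

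Depth and purity of the libraries bear on every value below. Total counts ran from 3540043 to 7026393 per library, and the 3 miR146aKO libraries were the shallowest. Mir146, the altered microRNA gene, had 0 counts in every wildtype and Runx1mut library, so its 0 counts elsewhere check no label. The library labelled miR146aKO_Runx1mut A031 had 14 Mir146 counts, against its label, and is kept as labelled. Without it the median log2 fold change of the members, introduced below, was 0.53 for the double genotype against wildtype, 0.205 against Runx1mut and 0.56 against miR146aKO, beside 0.37, 0.18 and 0.45 with it. The genes of the gate's own 2 markers were not even, and in miR146aKO they differed from wildtype in opposite directions. Kit stood at 218 to 436 CPM (read counts scaled to library size) in wildtype and at 24.6 to 59.7 CPM in miR146aKO. It stood at 101 to 711 CPM in Runx1mut and at 164 to 219 CPM in the double genotype. Ly6a (Sca-1) stood at 46 to 216 CPM in wildtype and at 505 to 1019 CPM in miR146aKO. It stood at 20.4 to 222 CPM in Runx1mut and at 12.1 to 121 CPM in the double genotype. Ly6a was lowest in A051 (12.1 CPM), A001 (18.6) and A021 (20.4), the 3 libraries with the highest mean level of the members below. The Y-linked genes Ddx3y, Uty, Kdm5d and Eif2s3y summed to 0.547 to 32 CPM in wildtype and to 99.3 to 242 CPM in miR146aKO, without overlap, and to 13.8 to 214 CPM in the other 6 libraries. The labels do not give the animals' sex. An edgeR fit with the log2 of this sum as a covariate called 0 members in any comparison. The fit without it also called 0, so this count cannot show whether the Y-linked difference bears on the members. The 12 listed stem and progenitor genes, all detected, summed to between 1987 and 3915 CPM in wildtype. The sums ranged from 741 to 1573 CPM in miR146aKO, from 369 to 3675 in Runx1mut and from 306 to 2022 in the double genotype. Ly6a is one of the 12 and made up most of each miR146aKO sum. In miR146aKO against wildtype 11 of the 12 stood on the lower side, with a median log2 fold change of -2.84 (-0.003 for all genes). The 9 B lineage markers, which the sort should remove, reached 5347 to 10970 CPM in miR146aKO but 17.5 to 765 CPM in the other 9 libraries, and the 9 T and NK markers 97.4 to 1693 CPM but 2.18 to 39.6 CPM. The part of such differences in cell content in the results below was not tested. In these bulk samples, more of one cell type and more RNA of a gene per cell cannot be told apart. Since no label names separate animals for the 3 libraries of a group, p-values refer to the spread among these libraries, which may be technical.

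Of the 83 members, 78 had enough reads to be tested among 12744 genes. CPM is scaled here by the trimmed mean of M-values (TMM), and levels between genes are given as CPM per kilobase of the longest annotated transcript, averaged over the 12 libraries. The median tested member stood at 70.8 CPM per kb. The medians by complex were 60.9 for complex I, 77.1 for complex II, 56.3 for complex III, 171 for complex IV and 108 for the ATP synthase. The catalytic core of the ATP synthase led: Atp5b, its catalytic beta subunit, stood at 555 CPM per kb, Atp5a1, the alpha subunit, at 472, and Atp5h, a subunit of the stalk, at 270. In complex I the highest levels were those of the small accessory subunits Ndufa1 (297 CPM per kb), Ndufa2 (296) and Ndufb9 (225). In complex III they were the hinge protein Uqcrh (247), Uqcr10 (185) and Uqcr11 (112), and in complex IV Cox6a1 (436), Cox7a2l (345) and Cox4i1 (336). Complex II was even by comparison: its flavoprotein Sdha stood at 124 CPM per kb, the membrane anchor Sdhd at 85.9, the iron-sulfur subunit Sdhb at 68.3 and the other anchor Sdhc at 55.4. The order depends on the transcript chosen for the length. With the principal transcript, Ndufa4 led complex I at 360 CPM per kb and Atp5e, the epsilon subunit, came after Atp5b and Atp5a1 at 437.

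**Figure D1:**
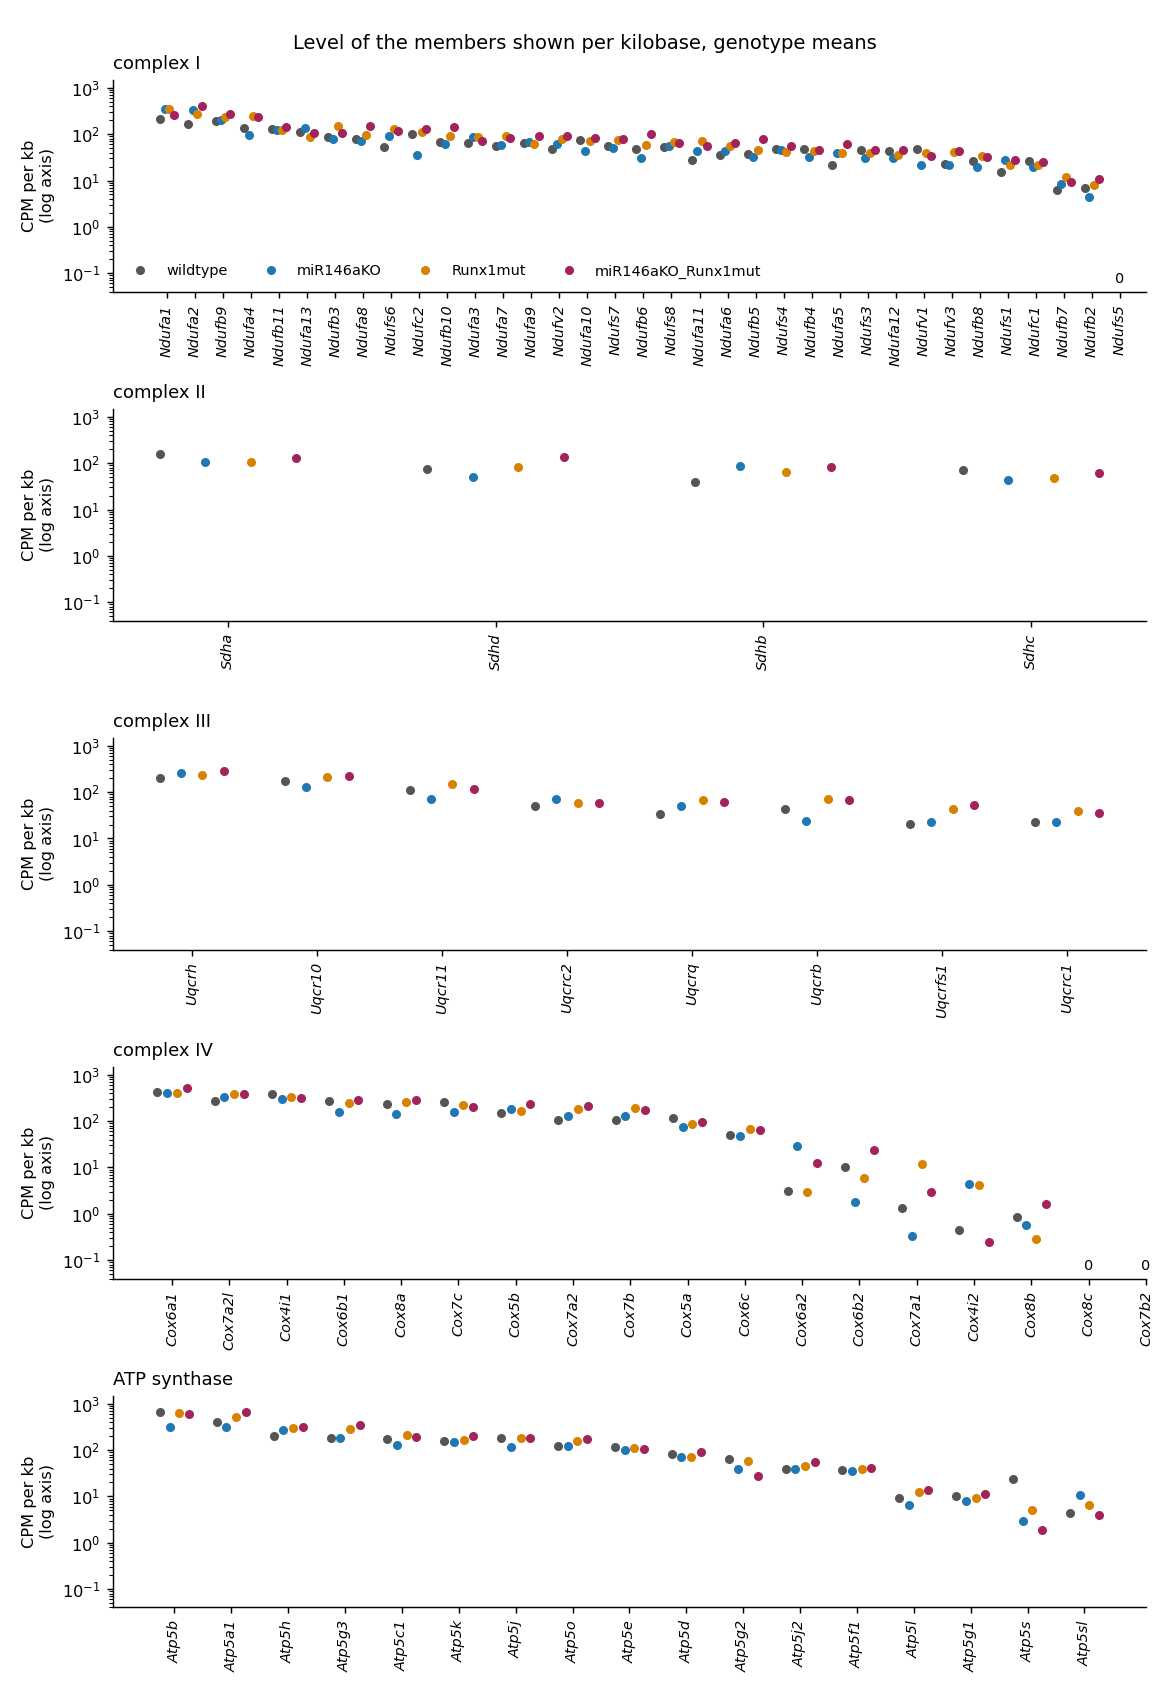
Level of the members in CPM per kilobase of its longest transcript (log axis), 1 point per genotype mean of 3 libraries, by complex and in falling order. Atp5b and Cox6a1 stand highest in their complexes at 555 and 436 CPM per kb, a 0 marks the 3 members without a count, and the isoforms of complex IV known from muscle and testis lie far below their common partners.

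Complex IV has paralogues that other tissues use, and in these cells the widely expressed form dominated in each of the families. Cox4i1 stood at 336 CPM per kb against 2.28 for Cox4i2, the form known from lung and low oxygen. Cox6a1 stood at 436 against 11.8 for the heart and muscle form Cox6a2, and Cox6b1 at 243 against 10.3 for the testis form Cox6b2. Cox7a2 stood at 159 and Cox7a2l at 345 against 4.05 for the muscle form Cox7a1. Cox8a stood at 231 against 0.845 for the muscle form Cox8b, and Cox7b at 152. The testis forms Cox8c and Cox7b2 had 0 counts in all 12 libraries. Ndufs5, a complex I subunit, also had 0 counts in all 12 libraries. Its transcript is at least 95% identical over at least 200 bases to that of BC002163, which was counted at 2.18 to 15.2 CPM, so the 0 for Ndufs5 was not read as its level. Among the 3 genes for subunit c of the ATP synthase ring, which differ in their leader peptides, Atp5g3 stood at 252 CPM per kb, Atp5g2 at 47.9 and Atp5g1 at 9.62. The order of the last 2 rests on the annotated length, 753 bases for Atp5g2 and 4715 for Atp5g1. In CPM they stood at 36.0 and 45.4.

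The reads of 2 of the low complex IV isoforms came from few libraries. Cox7a1 had 153 counts in all, 106 of them in the Runx1mut library A021 (15.0 CPM, against 0 to 2.43 CPM in the other 11), and was too low to be tested. Cox4i2 had 53 counts in the Runx1mut library A058 and 20 in the miR146aKO library A047, and 6 libraries were at 0. Cox8b had 20 counts in all and was not tested either. Thus 1 or 2 libraries carried most of what was seen of these genes, and the genotypes do not separate by them.

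Cox6a2 was the tissue isoform with the widest spread among libraries and shares its place in the genome with another gene. It stood at 0.410, 0.222 and 5.55 CPM in wildtype (A015, A040, A053) and at 11.4, 21.3 and 26.3 CPM in miR146aKO (A047, A150, A151). It stood at 0.710, 0.284 and 4.96 CPM in Runx1mut (A021, A042, A058) and at 0.172, 7.11 and 18.2 CPM in the double genotype (A001, A031, A051). All miR146aKO libraries lay above all wildtype and all Runx1mut libraries, with a log2 fold change against wildtype of 3.23 ± 1.61 (SE; edgeR adjusted p = 0.351). Cox6a2 (chromosome 7, 128205435 to 128206387, minus strand, GRCm38) lies across from Itgad, an integrin gene on the plus strand known from macrophages. Itgad stood at 195 and 121 CPM in the miR146aKO libraries A150 and A151 and at 249.5 CPM in A051 (double genotype), the 3 libraries that also held the highest Cox6a2 values. The 9 monocyte and macrophage markers were also highest there, at 6007, 4061 and 4159 CPM, against 85.2 to 942 CPM in the other 9 libraries. The likeness is not complete: Itgad was at 3.48 CPM in A047, where Cox6a2 stood at 11.4, and at 49.8 CPM in A001, where Cox6a2 stood at 0.172. The libraries were made without strand, so reads of the pair cannot be told apart where the genes overlap.

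**Figure D2:**
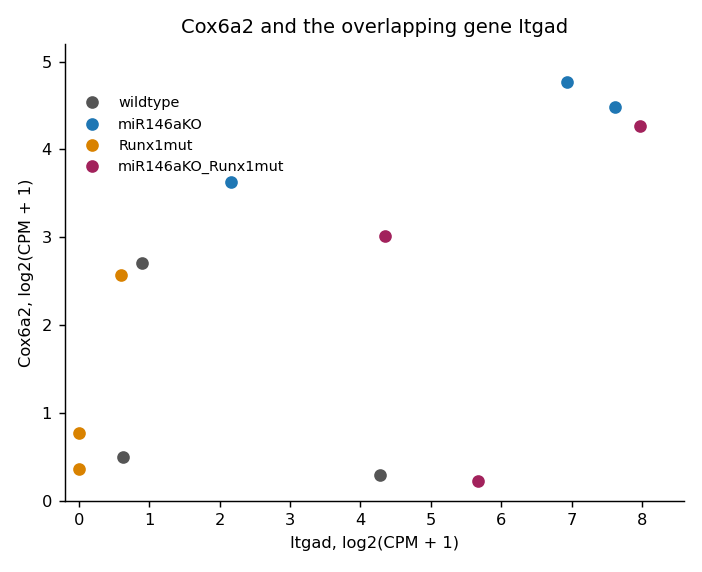
Cox6a2 against the overlapping gene Itgad in the 12 libraries, both as log2(CPM + 1), coloured by genotype. The 3 libraries at the upper right are A150 and A151 (miR146aKO) and A051 (double genotype); A001 lies at the lower right with Itgad at 49.8 CPM and Cox6a2 at 0.172 CPM.

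Overlap and copies concern other members too. In the GENCODE annotation (release 21 for mouse, GRCm38), 28 members have a gene on the other strand, 12 overlap a gene on the same strand, and 16 have transcripts of other genes at 95% identity or more over 200 bases. For 14 of those 16 the copies include pseudogenes. The way in which reads with several places were counted is not stated in the labels, so the values of these members are less certain than those of the rest.

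The median member was steadier between libraries of a genotype than the median gene. The members' median SD within a genotype was 0.528 on the log2 CPM scale, against 0.965 for all genes tested and 0.595 for 2427 other genes between the quartiles of the members' level. Uqcrh (0.221), Atp5b (0.256) and Cox6a1 (0.273) were the steadiest. Cox6a2 (1.82), Cox4i2 (1.75), Cox6b2 (1.52) and Atp5s (1.31) were the least steady, and all 4 are among the low members. The median Pearson r between pairs of members over the 12 libraries was 0.268 (3003 pairs), a description of values that share libraries and depth.

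As a group, the members were highest in the double genotype. Their mean log2 CPM was 5.91, 6.13 and 6.36 in the wildtype libraries A015, A040 and A053, and 6.16, 5.95 and 5.99 in the miR146aKO libraries A047, A150 and A151. It was 6.72, 5.993 and 6.495 in the Runx1mut libraries A021, A042 and A058, and 6.63, 6.38 and 6.57 in the double-genotype libraries A001, A031 and A051. All double-genotype libraries lay above all wildtype and all miR146aKO libraries, although A031 exceeded the wildtype library A053 by a narrow margin. The Runx1mut libraries spanned nearly the whole range, with A042 inside the range of miR146aKO. The highest value among the 12 libraries was in A021 for 19 of the 78 members (24.4%), in A001 for 19 (24.4%) and in A051 for 13 (16.7%). Among all genes tested those libraries held the highest value for 5.82%, 11.5% and 10.1%.

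Neutrophil and granule genes were highest where the members were highest. The 9 neutrophil and granule genes, such as Mpo and Elane, all detected, summed to 56490 CPM in A021, 59780 in A001 and 35630 in A051, the 3 libraries with the highest mean level of the members. The same genes were lowest in A015 (2266 CPM) and A042 (2646), the lowest library of wildtype and the lowest of Runx1mut for the members. By group, wildtype ranged from 2266 to 28630 CPM, miR146aKO from 3792 to 12110, Runx1mut from 2646 to 56490 and the double genotype from 13340 to 59780. The wildtype library A040 was an exception, with a sum of 28630 CPM above that of A058 (24290 CPM) at mean member levels of 6.13 and 6.495. The monocyte and macrophage markers did not rank the libraries as the members did. They were highest in A150 (6007 CPM) and high in A151 (4061 CPM), where the members' mean was 5.95 and 5.99. They were also high in A051 (4159 CPM), where the members' mean was 6.57. In A001 and A021, with member means of 6.63 and 6.72, they summed to 942 and 425.5 CPM. The stem and progenitor genes ran the other way at the ends, at 3915 CPM in A015 and 3675 in A042 against 306 in A001 and 369 in A021. The part of cell content in the members' level was not tested.

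**Figure D3:**
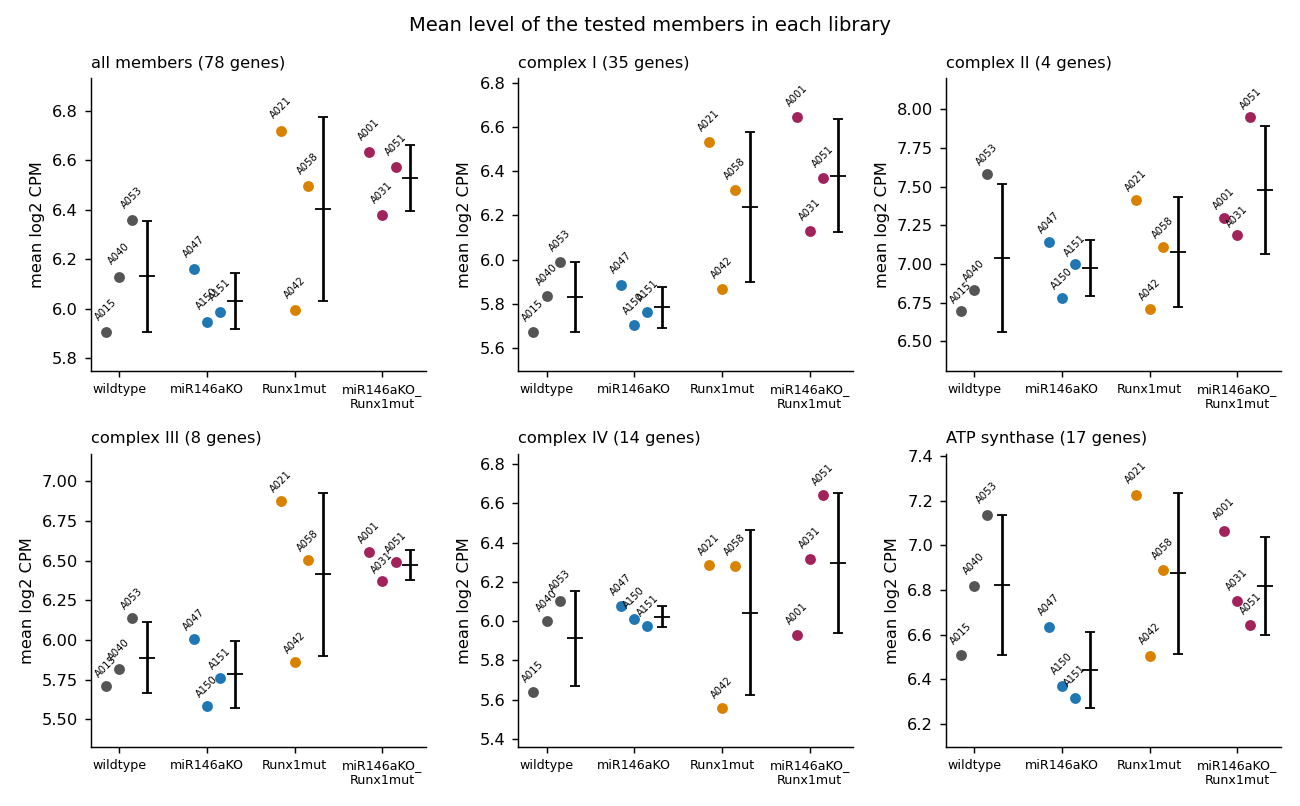
Mean log2 CPM of the tested members in each library, for all 78 and for each complex, with the genotype mean and SD (n = 3) as a bar beside the points. The double-genotype libraries lie between 6.38 and 6.63 for all members, above all miR146aKO libraries (5.95 to 6.16), while Runx1mut runs from 5.99 in A042 to 6.72 in A021.

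The complexes did not share one order of genotypes. Complex I followed the group as a whole, at 5.83 ± 0.159 log2 CPM (mean and SD, n = 3) in wildtype, 5.79 ± 0.093 in miR146aKO, 6.24 ± 0.339 in Runx1mut and 6.38 ± 0.257 in the double genotype. Complex III did too, at 5.89 ± 0.221, 5.79 ± 0.212, 6.41 ± 0.513 and 6.47 ± 0.095. For both, all double-genotype libraries lay above all wildtype libraries. The ATP synthase was instead set apart by its miR146aKO level, 6.44 ± 0.17, against 6.82 ± 0.314 in wildtype, 6.87 ± 0.36 in Runx1mut and 6.82 ± 0.219 in the double genotype. Even so, its highest miR146aKO library (A047, 6.64) lay above the lowest wildtype (A015, 6.51) and Runx1mut (A042, 6.51) libraries. Complex IV levels overlapped between all groups, from 5.56 in A042 to 6.64 in A051, and complex II, with 4 genes, ran from 6.69 in A015 to 7.95 in A051. The complex IV mean gives its low isoforms the same weight as the abundant subunits. Cox6a2 and Cox6b2 stood at 0.284 and 2.42 CPM in A042 and at 18.2 and 26.2 CPM in A051. Cox4i2 was at 0 in both. Measured against the mean of all members in the same library, the ATP synthase stood 0.691 ± 0.089 higher in wildtype, 0.411 ± 0.072 in miR146aKO, 0.472 ± 0.066 in Runx1mut and 0.293 ± 0.193 in the double genotype. Every wildtype library lay above the other 9 on this measure. Atp5s, 1 of the 17 ATP synthase genes, has a part in these means. It stood at 38.3 CPM in wildtype, 4.7 in miR146aKO, 8.2 in Runx1mut and 2.9 in the double genotype. The means without it were not computed. The median log2 fold change of the 17 genes against wildtype was -0.23, 0.07 and 0.16 in the last 3 groups. For all members it was -0.10, 0.27 and 0.37.

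No member passed the test for any difference among the 4 genotypes (edgeR quasi-likelihood test over all 12 libraries, Benjamini-Hochberg adjusted p under 0.05), which called 52 of the 12744 genes (0.408%). At an unadjusted p under 0.05 it marked 7 of 78 members, against 14.7% of all genes. The 7 were Ndufa4 (adjusted p = 0.192), Atp5b (0.206), Sdhd (0.208), Atp5s (0.219), Ndufc2 (0.298), Atp5a1 (0.324) and Ndufb5 (0.339) by the same edgeR test. The share of members marked, 8.97%, was thus below that of all genes. In each of the 6 comparisons that follow the number of members called by edgeR was also 0, so the directions given are those of levels. The comparisons share libraries, and their counts are not independent of one another. Most members described for a comparison were named by their small p in it. Groups without overlap follow in part from that choice, and the share of all genes without overlap was not computed.

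Without miR-146a alone, the members lay about where they did in wildtype. The median log2 fold change of the 78 was -0.10, against -0.003 for all genes, and 31 members (39.7%) stood on the higher side, against 49.9% of all genes. By complex the medians were -0.085 for complex I, 0.04 for complex III and -0.05 for complex IV. They were -0.54 for complex II (3 of 4 on the lower side) and -0.23 for the ATP synthase (13 of 17). edgeR called 0 members and 0.18% of all genes. At an unadjusted p under 0.05, 3 members were higher (8.81% of all genes were) and 5 lower (7.09% of all genes). The higher ones were Ndufs1, the largest core subunit of complex I, Ndufa2 and Sdhb, and the lower ones Atp5b, Atp5s, Ndufc2, Ndufa10 and Ndufv1, the subunit that binds NADH. limma-voom called 0 members and 0.596% of all genes, and edgeR without the low-count filter 0 members and 4.14%. DESeq2 called 1 member, Atp5b, and 6.66% of all genes. The median lay between -0.27 without A015 and 8e-04 without A053, and it was -0.26 without A047, -0.05 without A150 and -0.17 without A151. The 3 higher members became 0 without A015 or A058, and 1 without A021, A040, A047, A051, A150 or A151. For such counts from other fits, here and below, the share of all genes at that p is not given. They describe how steady a count was and are not read as a result about the members.

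Atp5b was the member with the smallest p in that comparison. It stood at 638, 512 and 684 CPM in miR146aKO, at 1033, 1208 and 1500 CPM in wildtype, at 1553, 1073 and 1071 CPM in Runx1mut and at 1375, 1068 and 1052 CPM in the double genotype. The 3 miR146aKO libraries were the lowest of the 12, and no other group reached down to them. The log2 fold change against wildtype was -1.03 ± 0.29 (SE; edgeR adjusted p = 0.124). With DESeq2 it was -0.98 (adjusted p = 0.0358). Leaving out each library in turn kept the edgeR value between -1.15 and -0.89. Atp5a1, its partner in the catalytic head, did not share this order: it stood at 836, 672 and 1025 CPM in miR146aKO and at 806, 970 and 1465 CPM in wildtype, which overlap. Atp5a1 was highest in the double genotype, at 1939, 1630 and 1700 CPM, above every library of the other groups but A021 (1983 CPM).

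Ndufc2 and Ndufv1, both of complex I, were also low without miR-146a. Ndufc2, a membrane-arm subunit, stood at 23.7, 37.5 and 11.9 CPM in miR146aKO, below each of the other 9 libraries, which ran from 45.1 CPM in A031 to 145 CPM in A051. Its log2 fold change against wildtype was -1.49 ± 0.57 (edgeR adjusted p = 0.223). Ndufv1 stood at 40.8, 36.5 and 30.7 CPM in miR146aKO and at 69.1, 108 and 59.5 CPM in wildtype, without overlap (-1.13 ± 0.47, edgeR adjusted p = 0.267). Outside miR146aKO, the Runx1mut library A058 was as low, at 36.6 CPM.

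Atp5s was high in wildtype and low elsewhere, on few reads. It stood at 12.7, 72.6 and 29.5 CPM in wildtype, 10.8, 1.45 and 1.95 in miR146aKO, 12.2, 4.98 and 7.53 in Runx1mut and 4.13, 4.44 and 0.242 in the double genotype. Every wildtype library lay above the other 9, with A015 only just above A021. The log2 fold changes against wildtype were -3.02 ± 1.15 in miR146aKO, -2.21 ± 1.10 in Runx1mut and -3.68 ± 1.18 in the double genotype (edgeR adjusted p = 0.222, 0.928 and 0.475). DESeq2 called the last of them (-3.72, adjusted p = 0.0316). Without the wildtype library A040, which holds 327 of its 890 counts, the 3 values became -2.24, -1.40 and -2.89.

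In Runx1mut the members leaned to the higher side of wildtype, and the lean was smaller without A021. The median log2 fold change was 0.27, against 0.01 for all genes, and 52 members (66.7%) stood on the higher side, against 50.3% of all genes. edgeR called 0 members and 0% of genes; at an unadjusted p under 0.05, 2 members were higher (2.64% of all genes) and 0 lower (2.88%). limma-voom called 0 members and 0% of genes, DESeq2 0 members and 0.913% of genes, and edgeR without the filter 0 members and 0.843%. Without A021 the median was 0.10 and 0 members were higher at that p. Without A042 it was 0.44 with 8 members, without A053 it was 0.49 with 4, and without A015 1 member was higher at that p. The share of all genes at that p in these fits is not given, so a rise in the count is not read as particular to the members. By complex the medians were 0.35 for complex I, 0.54 for complex III (8 of 8 on the higher side), -0.20 for complex II, 0.04 for complex IV and 0.07 for the ATP synthase. Short genes leaned the same way here: 597 tested genes outside the list with transcripts under 1000 bases had a median of 0.25. Their level was lower than that of the members, with a median of 3.77 log2 CPM against 6.56. The median longest transcript was 1001 bases for the members and 3364 bases for all genes tested.

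Ndufs6 and Ndufa4 were the members marked in that comparison. Ndufs6, which helps to seat the NADH-side module of complex I, stood at 136, 54.1 and 99.2 CPM in Runx1mut and at 47.1, 46.4 and 26.3 CPM in wildtype. The groups did not overlap, and the log2 fold change was 1.27 ± 0.48 (edgeR adjusted p = 0.798). Ndufs6 overlaps Mrpl36 on the other strand. Ndufa4 stood at 305, 404 and 217 CPM in Runx1mut against 130, 171 and 191 CPM in wildtype, again without overlap (0.91 ± 0.39, edgeR adjusted p = 0.877). Cox7b, a small complex IV subunit, stood at 273, 118 and 192 CPM against 91.7, 91.7 and 140 CPM, which overlap (0.85 ± 0.40, edgeR adjusted p = 0.902). Without A021 its log2 fold change was 0.50.

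The double genotype stood higher than wildtype for 62 of 78 members (79.5%), against 51.3% of all genes. The median log2 fold change was 0.37, against 0.03 for all genes and 0.08 for the 597 short genes outside the list. edgeR called 0 members and 0% of genes. At an unadjusted p under 0.05, 10 members were higher (4.99% of all genes) and 1, Atp5s, was lower (4.43%). The 10 were 7 complex I subunits (Ndufs1, Ndufs6, Ndufb10, Ndufv2, Ndufa2, Ndufb5 and Ndufa5) with Atp5g3, Sdhd and Cox7a2. limma-voom called 0 members and 0% of genes, DESeq2 1 member (Atp5s) and 1.52%, and edgeR without the filter 0 members and 1.33%. Leaving out each library kept the median between 0.30 and 0.54 and the members on the higher side between 53 and 66. The count of 10 was less stable: it was 1 without A040, 3 without A015 and 5 without A051. The medians by complex were 0.49 for complex I (31 of 35 on the higher side), 0.57 for complex III (8 of 8), 0.33 for complexes II and IV (2 of 4 and 10 of 14) and 0.16 for the ATP synthase (11 of 17). Markers of other cells also stood apart here: the 9 monocyte and macrophage genes summed to 681 to 4159 CPM in the double genotype and 85.2 to 320 CPM in wildtype, and 8 of the 9 were higher at an unadjusted p under 0.05 (median log2 fold change 2.98). Of the 10 erythroid genes 5 were higher at that p (median 3.90), with sums of 380 to 1131 CPM against 201 to 479 CPM. Their part in the members' difference was not tested.

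Among these, Ndufv2 was even within both groups. This iron-sulfur subunit, the partner of Ndufv1, stood at 153, 169 and 155 CPM in the double genotype and at 83.9, 81.7 and 77.7 CPM in wildtype (0.97 ± 0.39, edgeR adjusted p = 0.486). In Runx1mut it ran from 80.4 CPM in A042 to 193 CPM in A021. Ndufa2 stood at 291, 185 and 236 CPM in the double genotype and at 77.9, 78.8 and 129 CPM in wildtype (1.32 ± 0.44, edgeR adjusted p = 0.475). It was also above wildtype in miR146aKO, at 160, 182 and 218 CPM (0.97 ± 0.44, edgeR adjusted p = 0.305), and it overlaps Tmco6 on the other strand. Cox7a2, a complex IV subunit, stood at 132, 121 and 170 CPM against 53.6, 62.2 and 94.8 CPM in wildtype (1.01 ± 0.40, edgeR adjusted p = 0.486). None of these 3 pairs of groups overlapped, but these members were named for their small p in this comparison, so the separation is no further support.

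**Figure D4:**
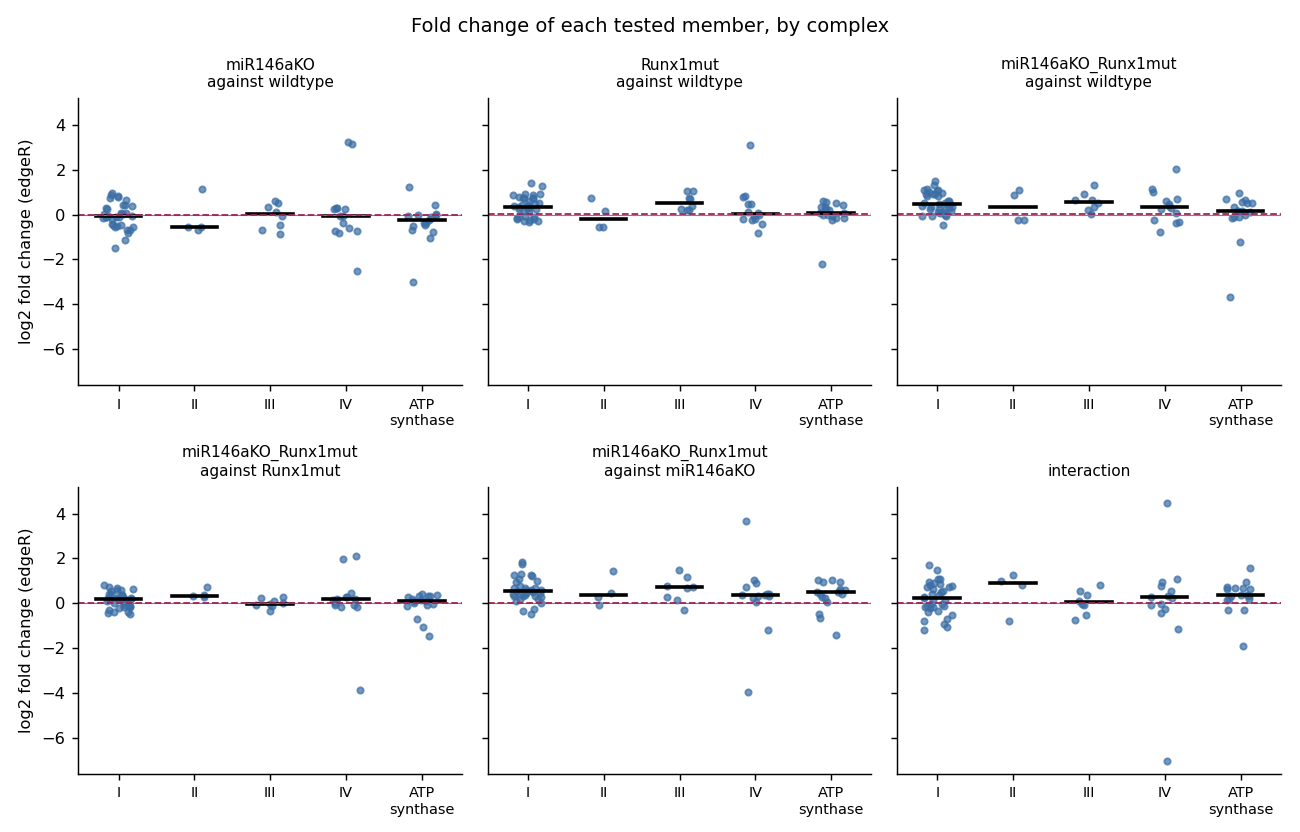
edgeR log2 fold change of each of the 78 tested members (points) in the 6 comparisons, by complex, with the median of each complex (black bar), 0 (grey line) and the median of all 12744 genes (dashed). In the double genotype against miR146aKO 68 of 78 points lie above 0; the points farthest from 0 in complex IV are Cox4i2, Cox6a2 and Cox6b2, all low genes.

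Against Runx1mut the double genotype differed little. The median log2 fold change was 0.18, against 0.01 for all genes and -0.11 for the 597 short genes outside the list. On the higher side stood 48 members (61.5%), against 50.4% of all genes. edgeR called 0 members and 0% of genes. At an unadjusted p under 0.05, 0 members were higher (2.88% of all genes) and 0 lower (1.75%). limma-voom called 0 members and 0% of genes, DESeq2 0 members and 0.619%, and edgeR without the filter 0 members and 0.75%. The median was -0.01 without A042, 0.04 without A001 and 0.28 without A021, and 0.05 with upper-quartile scaling; without A031, 1 member was higher at that p. The members nearest to a difference were Sdhd (0.72 ± 0.37), Ndufb5 (0.74 ± 0.44), Ndufb10 (0.70 ± 0.47) and Atp5g2 (-1.07 ± 0.64), each at an edgeR adjusted p of 0.999. Atp5g2 stood at 14.0, 22.2 and 27.2 CPM in the double genotype and at 37.7, 59.3 and 35.8 CPM in Runx1mut, without overlap. Ndufb10 stood at 190, 59.9 and 117 CPM against 86.0, 64.9 and 74.4 CPM, which overlap, and without A001 its log2 fold change was 0.23. Ndufb5 stood at 353, 168 and 209 CPM against 197, 86.8 and 153 CPM, and without A001 its log2 fold change was 0.37. Both are membrane-arm subunits of complex I.

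The widest difference in the members lay between the double genotype and miR146aKO. The median log2 fold change was 0.45, against -0.01 for all genes and 0.11 for the 597 short genes, and 68 of 78 members (87.2%) stood on the higher side, against 49.6% of all genes. edgeR called 0 members and 0.0157% of genes. At an unadjusted p under 0.05, 15 members were higher (7.6% of all genes) and 0 lower (7.17%). limma-voom called 0 members and 0.0942% of genes, and edgeR without the filter 0 members and 2.86%. DESeq2 called 2 members, Sdhd and Ndufc2, and 5.18% of genes. Leaving out each library kept the median between 0.38 and 0.56, the members on the higher side between 63 and 72 and the 15 between 10 and 16; a fit of the 2 groups alone gave 9. The 15 came from all complexes: 7 from complex I (Ndufa4, Ndufa8, Ndufa10, Ndufb5, Ndufb6, Ndufb10 and Ndufc2), Sdhd from complex II, Uqcrb from complex III, Cox8a and Cox6b2 from complex IV, and Atp5a1, Atp5b, Atp5g3 and Atp5l from the ATP synthase. The medians by complex were 0.54, 0.37, 0.72, 0.36 and 0.52 in that order, and 32 of 35, 3 of 4, 7 of 8, 12 of 14 and 14 of 17 genes stood on the higher side. With the 39 tested members that have neither a gene on the other strand nor a copy, the median was 0.66. Some of these, Atp5b and Ndufc2 among them, overlap a gene on the same strand. Beside the difference between these 2 groups stand the B lineage markers, at 5347 to 10970 CPM in miR146aKO and 61.5 to 409 CPM in the double genotype. The neutrophil genes summed to 3792 to 12110 and 13340 to 59780 CPM, but their median log2 fold change was 0.14. Of these 9 genes 6 stood on the higher side, 3 of them at an unadjusted p under 0.05. All 7 megakaryocyte genes stood on the higher side (median 3.89, 5 at that p). Their sums overlapped, at 85.7 to 99.9 CPM in miR146aKO and 15.0 to 2039 CPM in the double genotype. The part of these markers in the members' difference was not tested.

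Sdhd had the smallest p of any member in any comparison here. It stood at 132, 129 and 242 CPM in the double genotype, at 57.5, 53.7 and 76.7 CPM in miR146aKO, at 95.9, 81.1 and 97.0 CPM in wildtype and at 111, 110 and 83.8 CPM in Runx1mut. The 3 double-genotype libraries were the highest of the 12 and the 3 miR146aKO libraries the lowest. The log2 fold change of the double genotype against miR146aKO was 1.42 ± 0.37 (edgeR adjusted p = 0.129), and 1.06 without A051. DESeq2 gave 1.34 (adjusted p = 0.0243). The other complex II genes did not share this order. Sdha was on average highest in wildtype, at 296, 604 and 442 CPM, against 219, 348 and 356 CPM in miR146aKO, and Sdhb lowest there, at 49.3, 26.0 and 68.9 CPM against 145, 75 and 101 CPM in miR146aKO. Sdhc ran from 80.9 CPM in A015 to 454 CPM in A053, both wildtype, so its groups all overlapped.

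The other members named by that comparison were Ndufc2, Ndufa4 and Atp5b. Ndufc2 stood at 75.6, 45.1 and 145 CPM in the double genotype, all above miR146aKO (1.86 ± 0.57, edgeR adjusted p = 0.167). The value was 1.31 without A051, and DESeq2 gave 1.78 (adjusted p = 0.0499). Ndufa4 stood at 385, 320 and 155 CPM in the double genotype and at 130, 90.5 and 133 CPM in miR146aKO, without overlap (1.28 ± 0.40, edgeR adjusted p = 0.167). For Atp5b the log2 fold change was 0.93 ± 0.29 (edgeR adjusted p = 0.169).

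**Figure D5:**
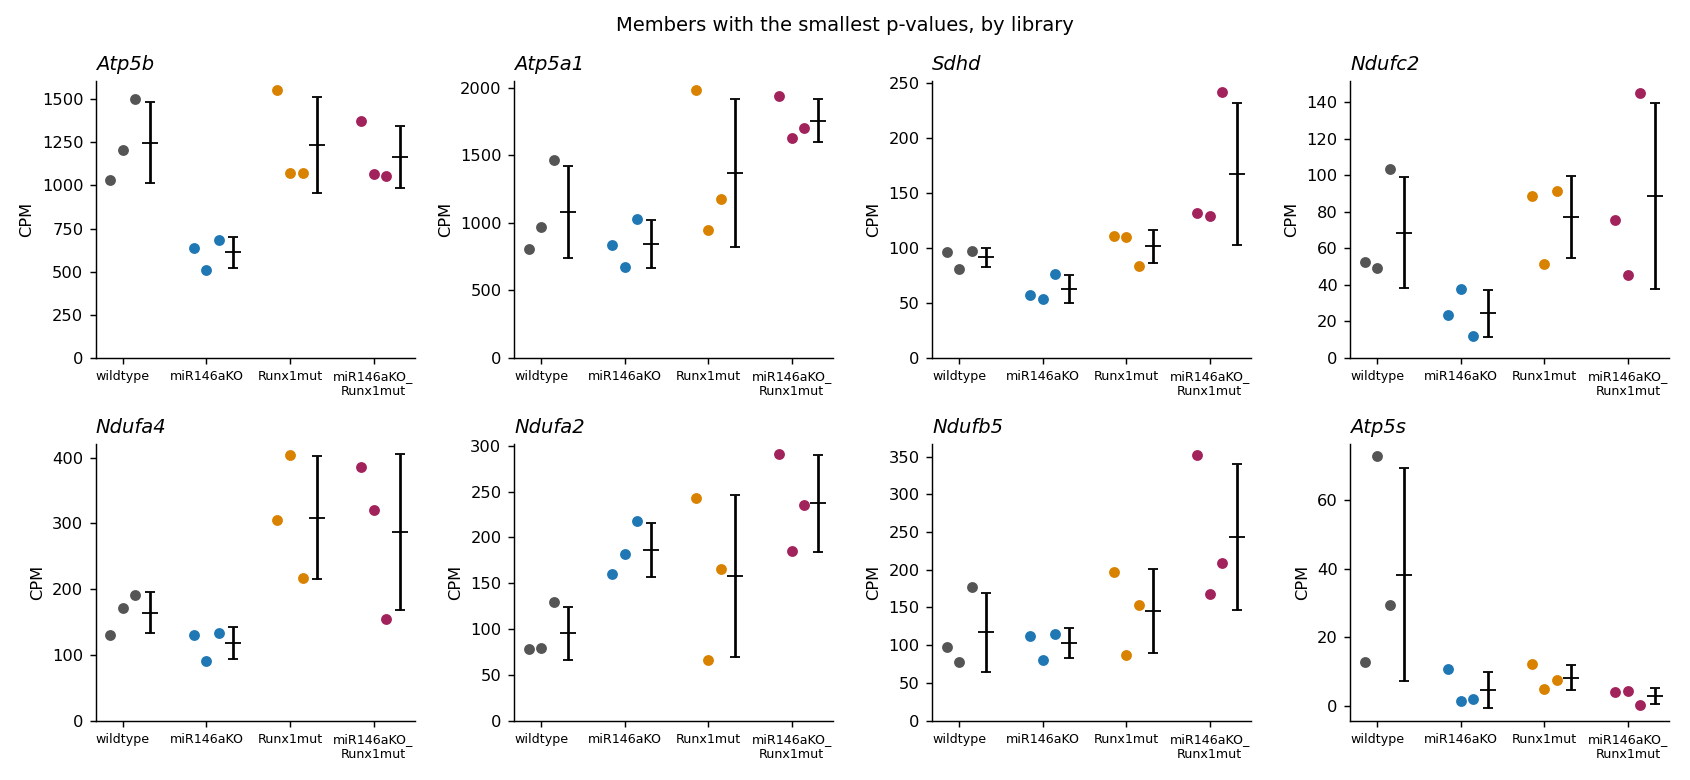
CPM of 8 members in the 12 libraries by genotype, with the mean and SD (n = 3) beside the points and linear axes. Atp5b and Ndufc2 are lowest in the 3 miR146aKO libraries, Sdhd is lowest there and highest in the double genotype, and Atp5s is highest in wildtype.

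The interaction asks whether adding mutant Runx1 moves a member differently with and without miR-146a: it is the double genotype minus miR146aKO, less Runx1mut minus wildtype. edgeR called 0 members and 0.0235% of genes. At an unadjusted p under 0.05, 2 members were higher (4.43% of all genes) and 0 lower (5.04%), and 49 of 78 (62.8%) stood above 0, against 50.9% of all genes. limma-voom called 0 members and 0% of genes, DESeq2 0 members and 1.32%, and edgeR without the filter 0 members and 1.4%. The median was 0.30, against 0.03 for all genes and -0.18 for the 597 short genes outside the list. It was 0.04 without A053, 0.08 without A042 and 0.47 without A021. The count of 2 became 0 without A053 or A058, 1 without A042 or A051 and 5 without A021. The 2 members were Sdhd (1.27 ± 0.52, edgeR adjusted p = 0.470) and Atp5b (0.95 ± 0.41, edgeR adjusted p = 0.486), with Ndufc2 (1.69 ± 0.79, edgeR adjusted p = 0.530) close to them. Cox6b2 gave 4.48 ± 2.10 (edgeR adjusted p = 0.530) from low counts, 0 to 108 per library. So the wide difference between the double genotype and miR146aKO was not shown to differ from that between Runx1mut and wildtype.

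Genes around the chain were read from lists of known pathway members, and edgeR called 0 of them in each comparison. Ribosomal proteins, short and abundant like the members, gave medians of their own for the double genotype against miR146aKO: 0.41 for 76 cytosolic ribosomal proteins (75 on the higher side) and 0.50 for 77 mitochondrial ribosomal proteins (59), where 49.6% of all genes stood on that side. Against wildtype the same lists had medians of 0.12 and 0.28 in the double genotype, beside 0.37 for the members. In miR146aKO against wildtype they had -0.33 and -0.10. For the 17 citric acid cycle genes the medians were 0.55 against miR146aKO (3 of 17 higher and 0 lower at an unadjusted p under 0.05, as were 7.6% and 7.17% of all genes) and 0.46 against wildtype. For the 44 assembly factors they were 0.49 (1 of 44 higher, 0 lower) and 0.12. The difference between these lists and the members was not tested.

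Of the pathway lists, glycolysis had the lowest median in miR146aKO against wildtype. Its 16 tested genes had a median log2 fold change of -0.83, with 5 lower and 0 higher at an unadjusted p under 0.05 (7.09% and 8.81% of all genes). In the double genotype against miR146aKO the median was 0.94, with 7 higher and 1 lower (7.6% and 7.17% of all genes). Ldha, which turns pyruvate into lactate, stood at 353, 300 and 242 CPM in miR146aKO and at 694, 609 and 679 CPM in wildtype (-1.15 ± 0.32, edgeR adjusted p = 0.121). These groups did not overlap. The 8 other chain genes tested had medians of -0.58 in miR146aKO against wildtype and 0.94 in the double genotype against miR146aKO. Cycs, the gene of cytochrome c, which carries electrons from complex III to complex IV, stood at 22.4, 18.9 and 23.6 CPM in miR146aKO and at 157, 34.7 and 91.4 CPM in the double genotype (2.12 ± 0.62, edgeR adjusted p = 0.158).

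The known regulators of these genes gave no common direction. The 18 tested regulators had medians of -0.26, -0.19 and 0.03 against wildtype in miR146aKO, Runx1mut and the double genotype. Gabpa stood at 224 ± 77.2 CPM (SD, n = 3) in wildtype, 145 ± 32.9 in miR146aKO, 169 ± 48.4 in Runx1mut and 249 ± 67.3 in the double genotype, and overlaps Atp5j on the other strand. Nrf1 stood at 63.8 ± 11.2, 36.2 ± 16, 86.4 ± 25.9 and 45.6 ± 26.8 CPM in the same order. Ppargc1a, a coactivator that drives mitochondrial biogenesis, stood at 48.0, 15.5 and 33.1 CPM in miR146aKO and at 0 to 5.06 CPM in the other 9 libraries (3.93 ± 1.96 against wildtype, edgeR adjusted p = 0.351). Runx1 itself stood at 279 ± 69.8 CPM in wildtype, 139 ± 36.3 in miR146aKO, 374 ± 212 in Runx1mut and 190 ± 69.5 in the double genotype. The Runx1mut libraries ran from 199.5 CPM in A021 to 609 CPM in A042, and the frameshift cannot be read from a gene's total.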

How the data were processed

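The deposited table holds raw read counts, with a column for each library. HISAT2 2.0.4 and featureCounts 1.5.2, FastQC 0.11.2 and the build mm10 are named in the submitters' processing notes. Per the labels' protocols, RNA was amplified with the NuGEN Ovation v2 kit and made into Nextera XT libraries, which keep no strand. How strand and multi-mapping reads were handled is not given in the sources used here. Genotypes of columns came from a deposited metadata table that holds no replicate number, and each library is called by its column identifier; 0 columns were unused.

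The deposited counts were tested with edgeR 4.0.16 in R 4.3.3 (quasi-likelihood), with TMM scaling, filterByExpr and 1 fit of 12 libraries, adjusted by Benjamini-Hochberg over all 12744 genes. The common biological coefficient of variation was 0.809. Log2 CPM uses a prior count of 2. The alternatives were DESeq2 1.42.0, limma-voom (limma 3.58.1), other size factors, no filter, other prior counts, Rn45s left out, only the groups compared and each library left out. Chosen after the data were seen were a Y-linked covariate and the members with neither a gene on the other strand nor a copy. Principal transcript lengths and the counts of members on the higher side were also chosen then. The scripts were tested on simulated data. Of the symbols, 98.4% matched GENCODE release 21.

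The members and lists were chosen with earlier results of these data known. Named members are, per comparison, the 4 of smallest p with a mean log2 CPM of at least 2, per complex the 3 of highest CPM per kb, the paralogue families of complex IV and of subunit c, the Sdh genes and members with 0 counts. Names of other members marked at an unadjusted p under 0.05, of those with the widest or narrowest spread and of those just under the filter were added after their values were seen. Per pathway list, up to 3 genes of smallest p could be named; Gabpa, Nrf1, Runx1, Kit and Itgad were added. A member is left out of the plot of levels per kilobase and is not reported here by name.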

Additional observations from a re-analysis of the deposited data

How the results depend on the processing

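With edgeR, 0 members were called in any comparison under each scaling, without the count filter, with only the groups compared, with a Y-linked covariate and without any single library; limma-voom also called 0. DESeq2 called 1 member in miR146aKO against wildtype (Atp5b, -0.98) and 1 in the double genotype against wildtype (Atp5s, -3.72). It called 2 in the double genotype against miR146aKO (Sdhd, 1.34, and Ndufc2, 1.78) and 0 in the other comparisons. These calls were 1.28%, 1.28% and 2.56% of the members. In the same order, DESeq2 called 6.66%, 1.52% and 5.18% of all genes. The cause of the difference between the tools was not tested. For the 4 members of smallest p in each comparison, no fold change changed sign in these alternatives. Without 1 library in turn, the members' median log2 fold change ran from -0.27 to 8e-04 in miR146aKO against wildtype, 0.10 to 0.49 in Runx1mut against wildtype, 0.30 to 0.54 in the double genotype against wildtype, -0.01 to 0.28 against Runx1mut, 0.38 to 0.56 against miR146aKO and 0.036 to 0.47 for the interaction. No paired analysis was possible because the count columns carry no replicate number. With 3 libraries per genotype, the tests resolve only wide differences, and low members such as Cox4i2, Cox6a2, Cox6b2 and Atp5s rest on few reads. The common biological coefficient of variation of 0.809 is that of all genes tested. The median member was steadier, with an SD within a genotype of 0.528 against 0.965 for all genes (log2 CPM).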
